A study of Mus musculus with 6 samples.

Results

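The collagen chains are the protein-coding genes whose symbol has the form Col, a type number, the letter a and a chain number, read through the Ensembl identifier from GENCODE M21, the mouse gene annotation of build GRCm38. This rule found 44 genes of the 34866 in the count table, and 37 of the 44 passed the filter on low counts. They were measured by RNA-seq in intestinal adenomas excised from C57BL/6J mice of 100 to 120 days, with 3 libraries from Apc1322T/+ mice and 3 from ApcMin/+ mice. All mice were therefore heterozygous for a germline Apc truncation. The ApcMin product is the shorter and lacks β-catenin binding, and the Apc1322T product is longer and keeps part of it. No unmutated tissue was analysed here. By the study's methods a sample was typically a pool of RNA extractions from a single mouse, so the p-values measure the spread between such pools, although the labels do not number the mice. Counts per gene do not report on either Apc truncation, and the genotypes rest on the labels.

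Collagens are the main structural proteins of the extracellular matrix. Their chains wind around each other into a triple helix, which needs glycine as 1 of every 3 residues, and the trimers then build fibrils, sheets, filaments or membrane-bound rods. In the intestine, fibroblasts and muscle cells below the epithelium make most fibrillar collagen, and the sheet-forming type IV collagen lies in the basement membrane under the epithelium and around vessels. The chains were grouped from general knowledge into 11 fibrillar chains, 8 of basement membranes (type IV and the related Col15a1 and Col18a1), 6 of the type VI beaded filament and its relatives, 9 fibril-associated chains, and 10 others. Most of these 10 form networks, anchoring fibrils or transmembrane proteins, and the class is named after them.

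The repeat sets the fibrillar class apart in the coding sequence itself, while the other classes overlap in it. The longest unbroken run with a glycine codon (GGN) every 3 codons was read from the GENCODE transcript with the longest coding sequence. It spanned 216 to 344 triplets in the 11 fibrillar chains, and was over 300 in all of them but Col24a1 (216) and Col27a1 (217). It was 30 to 66 triplets in the basement membrane chains, 37 to 87 in the beaded filament chains, 32 to 113 in the fibril-associated chains and 23 to 75 in the rest. The first 30 codons of the run are shown for the most abundant fibrillar chains, for Col11a2 and Col9a3 as examples of chains lower in ApcMin, and for Col4a1, with the glycine codons of the repeat in capitals. These stretches begin at codon 168 of Col1a1, codon 164 of Col3a1, codon 487 of Col11a2, codon 43 of Col4a1 and codon 177 of Col9a3.
Col1a1: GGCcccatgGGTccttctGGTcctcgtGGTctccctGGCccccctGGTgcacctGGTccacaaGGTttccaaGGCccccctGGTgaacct
Col3a1: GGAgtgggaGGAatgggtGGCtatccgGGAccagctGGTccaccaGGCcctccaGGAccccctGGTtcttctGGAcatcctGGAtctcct
Col11a2: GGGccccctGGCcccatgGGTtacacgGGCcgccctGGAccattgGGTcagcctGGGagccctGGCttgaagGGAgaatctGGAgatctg
Col4a1: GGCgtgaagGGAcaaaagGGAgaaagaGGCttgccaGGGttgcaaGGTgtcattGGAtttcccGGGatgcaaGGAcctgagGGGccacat
Col9a3: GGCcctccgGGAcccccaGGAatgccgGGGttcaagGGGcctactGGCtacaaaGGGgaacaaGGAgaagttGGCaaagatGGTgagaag
The run that starts here went on for 338 triplets in Col1a1, 344 in Col3a1 and 338 in Col11a2, but ended after 40 in Col4a1 and 113 in Col9a3.

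RefSeq promoter windows of GRCm38.p6, from 250 bases before to 50 bases after a start, held 35 of the 44 chain symbols in 38 windows. The 150 bases before the start are printed for Col3a1, the chain with the highest median level, and for Col11a2 and Col27a1, which had the lowest p-values among the fibrillar chains. Col3a1 lies at chr1:45311388-45311537, Col11a2 at chr17:34038988-34039137 and Col27a1 at chr4:63215262-63215411, all on the plus strand and outside annotated exons. The Col27a1 stretch is inside the gene as GENCODE draws it, which starts at base 63214004. Capitals mark matches on either strand of CCAAT, the letters of the CCAAT box, of TATAAA, found in many TATA boxes, and of GGGCGG, the core of the GC box.
Col3a1: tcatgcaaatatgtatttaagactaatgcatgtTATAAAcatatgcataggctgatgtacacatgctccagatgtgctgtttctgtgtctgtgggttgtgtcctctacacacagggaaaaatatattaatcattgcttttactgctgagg
Col11a2: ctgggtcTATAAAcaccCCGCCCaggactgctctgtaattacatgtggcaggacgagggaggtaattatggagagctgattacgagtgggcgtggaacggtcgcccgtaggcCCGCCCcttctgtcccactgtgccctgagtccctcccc
Col27a1: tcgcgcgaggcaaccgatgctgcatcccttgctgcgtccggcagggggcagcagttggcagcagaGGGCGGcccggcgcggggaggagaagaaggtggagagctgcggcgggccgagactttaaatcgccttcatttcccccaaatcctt
Over the whole 300 bases, GGGCGG was found in 23 of the 38 collagen windows (60.5%) against 35.7% of 32851 windows of all genes. CCAAT was found in 13 (34.2% against 37.4%) and TATAAA in 5 (13.2% against 13.6%). These are matches of letters, not binding sites. The windows are not all independent, since those of Col4a1 and Col4a2 overlap and share a GGGCGG match, and those of Col6a2 overlap. Some abundant chains, among them Col1a1, Col5a2 and Col9a3, had no window.

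The libraries held 23132461 to 33518324 estimated counts each, so that 3 counts, the limit that a count of 0 allows, correspond to 0.0895 to 0.130 CPM, that is counts scaled to the library total. Limits of this kind cover counting error only. All other CPM are scaled to totals adjusted by TMM factors of 0.9104 to 1.069. The collagen chains did not spread evenly over the libraries. ApcMin replicate 1, also the deepest library, held the highest value of 16 of the 37 tested chains (43.2%, against 15.2% of all genes tested). Apc1322T replicate 2, the shallowest, held the lowest value of 23 (62.2%, against 21.4% of all genes). The part of depth in this was not tested. Values fitted without single libraries are given beside the genes that moved with them.

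Across the 6 libraries the most abundant chains per length were those of fibrils and basement membranes. On the scale of CPM per kilobase of the reference transcript, the median over libraries was 62.8 for Col3a1, the homotrimer of extensible tissues, 58.8 for Col1a1 and 48.0 for Col1a2, the chains of type I collagen. The next was Col4a1 at 44.5, before Col18a1, which carries the endostatin domain, at 28.5, and Col4a2 at 27.8. Neighbours in this order were often not separable. Col3a1 exceeded Col1a1 in only 2 of 6 libraries and Col18a1 exceeded Col4a2 in 3 of 6, whereas Col1a1 exceeded Col1a2, and Col4a1 exceeded Col18a1, in 6 of 6. Col9a3, a chain of the type IX collagen known from cartilage fibrils, ranked 7 at 24.1, above both Col6a2 (14.8) and Col6a1 (13.1). Its partner Col9a2 had 4.14 and Col9a1 only 0.232 CPM per kilobase, so the 3 chains of this heterotrimer differed widely in level. The chains of type V collagen, which nucleate fibrils, followed with Col5a2 at 10.2 and Col5a1 at 6.60, and Col11a2 had 4.20.

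**Figure D1:**
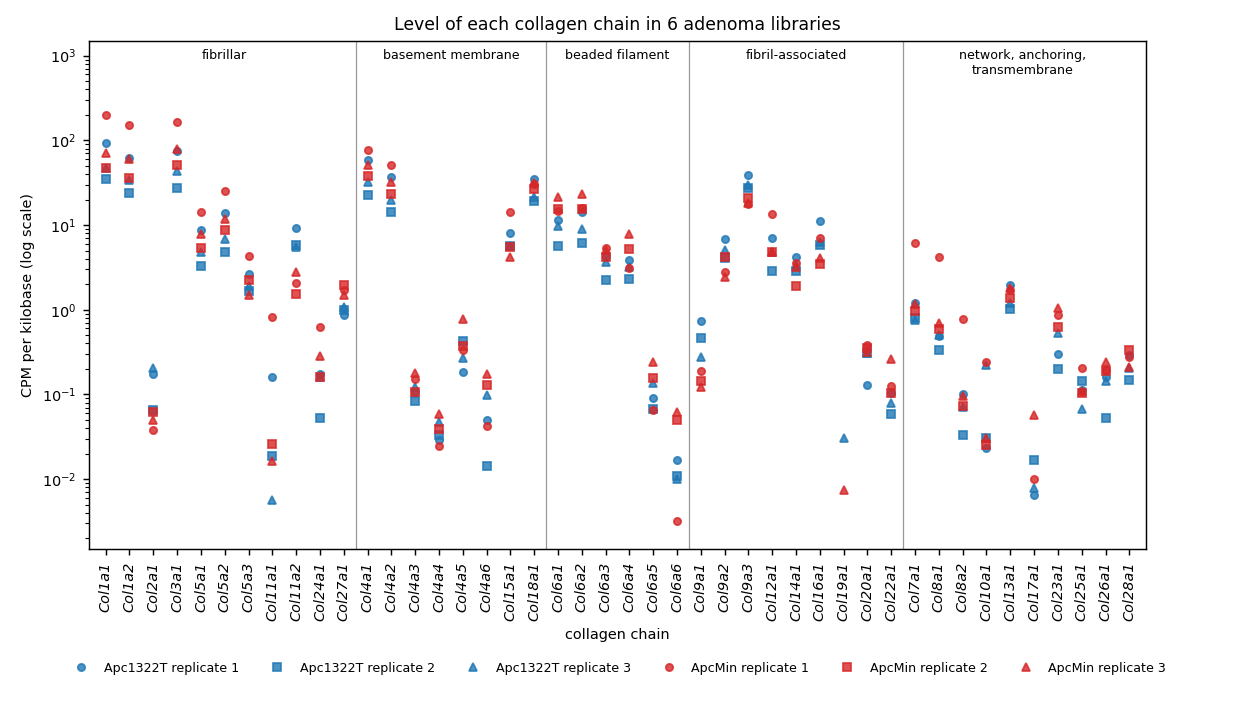
CPM per kilobase (log axis) of the 44 chains by class in each library, with circles, squares and triangles for replicates 1, 2 and 3 of Apc1322T (blue) and ApcMin (red). Values of 0 are not drawn, which leaves out 4 libraries of Col19a1 and 1 of Col17a1. The medians run from 62.8 for Col3a1 down to 0 for Col19a1.

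The 7 chains below the filter had 0 to 225 counts in a library. Col2a1, the main cartilage fibril chain, had 24, 7 and 24 counts in the Apc1322T libraries and 7, 8 and 8 in the ApcMin libraries. Col11a1, which pairs with Col11a2 in type XI collagen, had 34, 3 and 1 counts against 225, 5 and 4. Most of its counts thus came from replicate 1 of either genotype. Col10a1, the chain of hypertrophic cartilage, had 2 to 27 counts, and Col17a1, which anchors basal keratinocytes, 0 to 10. Col25a1 had 4 to 19, Col6a6 1 to 17 and Col19a1 0 to 3 counts. None of the 44 chains was at 0 in every library.

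The comparison of genotypes asked whether adenomas with the shorter and the longer Apc truncation differ in collagen expression. Of the 37 tested chains, 31 had a higher and 6 a lower fitted level in ApcMin, and the median log2 fold change (ApcMin minus Apc1322T) was 0.65 against 0.02 over all 16536 genes tested. A higher level was thus seen in 83.8% of the chains and in 52.4% of all genes. No chain passed the study's threshold of an adjusted p of 0.01 in edgeR's quasi-likelihood test, and the smallest adjusted p was 0.2565. The background was likewise 0% of all genes at this threshold and 0.00605%, 1 gene, at 0.05. At an unadjusted p of 0.05 there were 9 chains (24.3%, background 15.1%), with 5 higher (background 7.49%) and 4 lower (background 7.60%). In 10 chains (27%) the libraries of the genotypes did not overlap, against 21.0% of all genes. ApcMin lay above in 7 of them (background 11.0%) and below in 3 (background 9.96%). An absolute log2 fold change over 1 was fitted for 11 chains (background 6.28%).

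DESeq2's Wald test on the same counts, the study's tool, called 194 of 17346 genes at 0.01 (1.12%) and 472 at 0.05 (2.72%). Of 40 chains with an adjusted p in DESeq2, 3 passed 0.01, namely Col11a2, Col9a3 and Col27a1, and Col6a1 also passed 0.05. The chains' calls therefore depended on the tool. Leaving out single libraries moved the median of the tested chains between 0.27, without ApcMin replicate 1, and 0.97, without Apc1322T replicate 1. Without ApcMin replicate 1, 29 chains were higher and 10 lower of the 39 that then passed the filter.

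**Figure D2:**
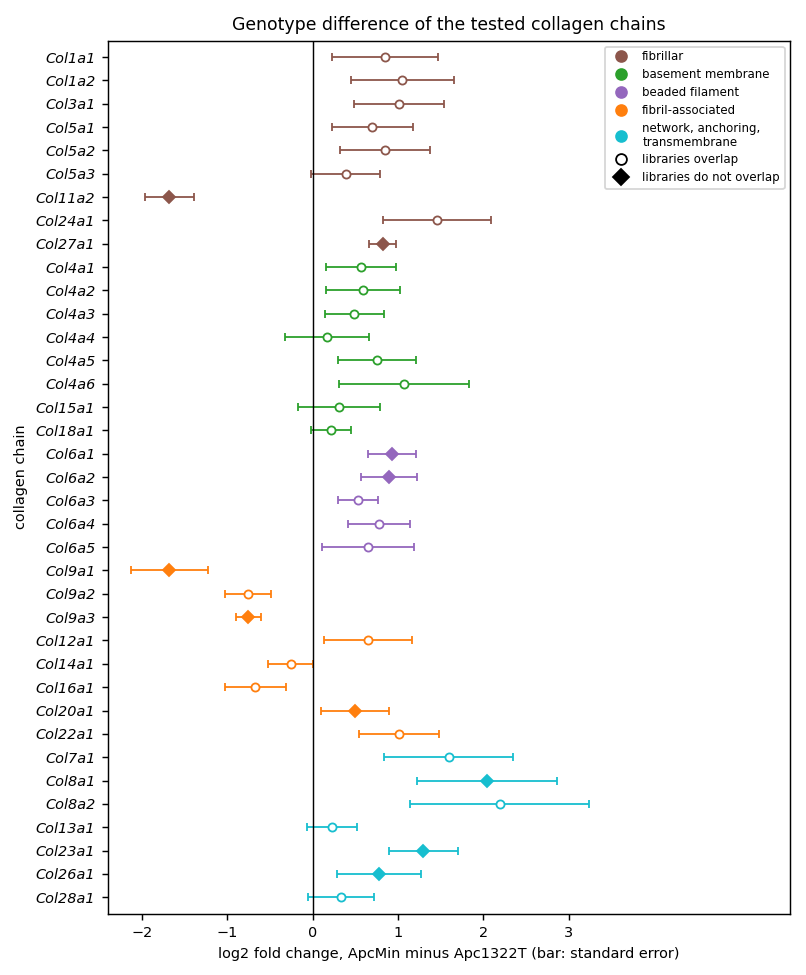
Log2 fold change (ApcMin minus Apc1322T) with its standard error for the 37 tested chains, coloured by class, where filled diamonds mark chains whose libraries do not overlap. Most points lie right of 0, and the 6 on the left are Col11a2, Col9a1, Col9a2, Col9a3, Col14a1 and Col16a1.

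The fibrillar class had 8 chains higher and 1 lower in ApcMin among the 9 tested, with a median log2 fold change of 0.84. Col1a1 measured 551, 207 and 280 CPM in the Apc1322T libraries and 1167, 277 and 417 in the ApcMin libraries. ApcMin replicate 1 stood far above all others, and the remaining ApcMin libraries lay within the Apc1322T range. The log2 fold change of Col1a1 was 0.84 (SE 0.62, edgeR adjusted p = 0.5236) and 0.01 without ApcMin replicate 1. Col1a2, its partner in type I collagen, had 333, 126 and 183 CPM against 817, 193 and 320. Its log2 fold change was 1.05 (SE 0.61, edgeR adjusted p = 0.4309) and 0.26 without that library. Col3a1 measured 415, 154 and 239 CPM against 911, 283 and 436, again with overlap of the groups. Its log2 fold change of 1.01 (SE 0.53, edgeR adjusted p = 0.4011) came down to 0.42 without ApcMin replicate 1. The class median without that library was 0.24, and it was 1.36 without Apc1322T replicate 1. Summed over the class, CPM were 1540, 596 and 840 in Apc1322T and 3244, 895 and 1355 in ApcMin, a 5.44-fold range from lowest to highest library.

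Among the chains that nucleate or regulate fibrils, Col5a1, Col5a2, Col5a3 and Col24a1 were also highest in ApcMin replicate 1. All of these but Col5a3 were lowest in Apc1322T replicate 2, whereas Col5a3 was lowest in ApcMin replicate 3, at 9.10 CPM. Col5a1 had 73.7, 27.9 and 40.6 CPM against 120, 45.2 and 65.8, and Col5a2 had 90.8, 31.6 and 45.4 against 167, 57.9 and 77.1. Their log2 fold changes were 0.70 (SE 0.47) and 0.85 (SE 0.53), but 0.22 and 0.27 without ApcMin replicate 1, and 1.18 and 1.40 without Apc1322T replicate 1. For Col5a3 the value of 0.39 (SE 0.40) turned to -0.14 without ApcMin replicate 1. Col24a1, a fibrillar chain with a shortened helix, had 8 to 34 counts in Apc1322T and 29 to 160 in ApcMin, and a log2 fold change of 1.46 (SE 0.63), which was 0.77 without ApcMin replicate 1. All of these overlapped between the genotypes.

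Col11a2 and Col27a1 were the tested fibrillar chains whose libraries separated, and they did so in opposite directions. Col11a2, a minor chain of cartilage fibrils, had 49.1, 31.3 and 30.1 CPM in Apc1322T and 11.0, 8.30 and 15.2 in ApcMin. Every Apc1322T library lay above every ApcMin library. On the log2 CPM scale the means were 5.17 ± 0.39 (SD, n = 3) and 3.49 ± 0.43 (SD, n = 3). The fitted log2 fold change was -1.68 (SE 0.29), with an adjusted p of 0.2565 in edgeR and 5.867e-06 in DESeq2. Leaving out single libraries gave -1.93 to -1.41. Col27a1, the other fibrillar chain with a shortened helix, had 6.57, 7.46 and 8.23 CPM in Apc1322T and 12.9, 14.9 and 11.5 in ApcMin. Its libraries were tight within each genotype, at 2.90 ± 0.16 and 3.71 ± 0.19 log2 CPM (SD, n = 3). The log2 fold change was 0.82 (SE 0.16), with an adjusted p of 0.2565 in edgeR and 0.007126 in DESeq2, and 0.72 to 0.90 without single libraries. ApcMin replicate 1 was not the highest library for this chain.

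All 8 basement membrane chains had a higher fitted level in ApcMin, with a median log2 fold change of 0.53, but none separated the libraries and none had an unadjusted p under 0.05 in edgeR. Col4a1 and Col4a2 form the type IV network found in nearly every basement membrane. Col4a1 measured 382, 149 and 211 CPM in Apc1322T and 508, 248 and 341 in ApcMin, and Col4a2 241, 92.5 and 127 against 333, 151 and 207. For both, Apc1322T replicate 1 lay above ApcMin replicates 2 and 3. The log2 fold changes were 0.56 (SE 0.41) and 0.59 (SE 0.43), with edgeR adjusted p = 0.5206 and 0.5242. Without ApcMin replicate 1 they were 0.25 and 0.22, and without Apc1322T replicate 1 they were 1.03 and 1.08. Col4a3, Col4a4, Col4a5 and Col4a6, the chains of specialised basement membranes such as that of the kidney glomerulus, had 2 to 160 counts in a library. Their log2 fold changes ran from 0.17 for Col4a4 (SE 0.49), which turned to -0.21 without ApcMin replicate 3, to 1.07 for Col4a6 (SE 0.76). Without ApcMin replicate 3, Col4a3 was at 0.31, Col4a5 at 0.28 and Col4a6 at 0.62, and without Apc1322T replicate 3 Col4a6 was at 1.79.

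Col18a1 had the narrowest range among the 10 most abundant chains. It had 198, 108 and 119 CPM in Apc1322T and 172, 147 and 175 in ApcMin, a 1.84-fold range over all libraries and a log2 fold change of 0.22 (SE 0.24), which ran from 0.05 without Apc1322T replicate 2 to 0.54 without Apc1322T replicate 1. Its relative Col15a1 had 41.3, 29.4 and 29.4 CPM against 74.3, 28.1 and 21.5. ApcMin thus held both the highest and the lowest library, and the log2 fold change of 0.31 (SE 0.48) turned to -0.43 without ApcMin replicate 1. The class sum was 865, 383 and 491 CPM in Apc1322T and 1092, 579 and 753 in ApcMin, a 2.86-fold range. The class median was 0.31 without Apc1322T replicate 2 and 0.34 without ApcMin replicate 1.

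Type VI collagen makes the beaded filaments that link cells to the matrix around them. All 5 tested chains were higher in ApcMin, with a median log2 fold change of 0.78. Col6a1 measured 47.2, 23.2 and 40.1 CPM in Apc1322T and 59.8, 63.6 and 87.5 in ApcMin, and Col6a2 55.5, 24.1 and 35.1 against 62.1, 60.9 and 91.0. Every ApcMin library lay above every Apc1322T library for both, and the highest was ApcMin replicate 3, not replicate 1. The log2 fold changes were 0.93 (SE 0.28) and 0.90 (SE 0.33), with edgeR adjusted p = 0.2857 and 0.3109 and DESeq2 adjusted p = 0.04862 and 0.1025. Col6a3, the longest chain of the filament, had 43.1, 22.9 and 37.0 CPM against 53.9, 42.7 and 51.9, and its libraries overlapped only where Apc1322T replicate 1 exceeded ApcMin replicate 2. Its log2 fold change was 0.53 (SE 0.23), and 0.30 without Apc1322T replicate 2. Col6a4 and Col6a5, which can stand in for Col6a3, were fitted at 0.78 (SE 0.36) and 0.65 (SE 0.54), but at 0.40 and 0.17 without ApcMin replicate 3, and Col6a5 at 1.02 without ApcMin replicate 1. The class median was 0.49 without ApcMin replicate 3. The class sum was 176, 87.9 and 137 CPM in Apc1322T and 199, 207 and 291 in ApcMin, without overlap.

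The fibril-associated class was the exception, with 5 of 8 tested chains lower in ApcMin and a median log2 fold change of -0.46. All 3 chains of type IX collagen were among those lower. Col9a3 had 119, 83.4 and 90.1 CPM in Apc1322T and 54.5, 63.5 and 55.6 in ApcMin, with no overlap. In log2 CPM this was 6.59 ± 0.27 against 5.85 ± 0.12 (SD, n = 3). The log2 fold change was -0.75 (SE 0.15), with an adjusted p of 0.2565 in edgeR and 0.003566 in DESeq2, and -0.86 to -0.58 without single libraries. Col9a3 shares 234 exon bases with Tcfl5 on the opposite strand. The kit marks strand, but whether strand was used in the counting is not given, and the part of Tcfl5 reads was not tested. Col9a1 was far less abundant, at 77, 37 and 24 counts in Apc1322T and 26, 14 and 15 in ApcMin, yet 2.82, 1.76 and 1.05 CPM against 0.726, 0.550 and 0.474 did not overlap either. This gave a log2 fold change of -1.68 (SE 0.45, edgeR adjusted p = 0.2781). Col9a2 had 19.96, 11.9 and 14.7 CPM against 8.16, 12.3 and 7.18, where only ApcMin replicate 2 reached into the Apc1322T range, and its log2 fold change was -0.76 (SE 0.27, edgeR adjusted p = 0.3083).

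These chains and Col11a2 are known as cartilage collagens, as is Col2a1. Of 6 chondrocyte markers, only Comp had enough counts to be tested, at a log2 fold change of -1.46 (SE 0.34), with an adjusted p of 0.2565 in edgeR and 0.006419 in DESeq2 and no overlap between the genotypes. The other markers, among them the cartilage proteoglycan Acan and the matrilins, had at most 10 counts in a library. Summed over the 6 markers, CPM were 5.23 to 9.87 in Apc1322T and 2.28 to 3.97 in ApcMin, of which Comp gave nearly all. Col2a1 itself stayed below the filter, at no more than 24 counts, although its 0.880, 0.333 and 1.05 CPM in Apc1322T lay above its 0.196, 0.315 and 0.253 in ApcMin. In counts the genotypes did not separate, since Apc1322T replicate 2 had 7, against 7, 8 and 8 in ApcMin. Not every chain tied to cartilage lay lower in ApcMin. Col11a1, the untested partner of Col11a2, had 34, 3 and 1 counts in Apc1322T against 225, 5 and 4 in ApcMin, with overlap. The untested Col10a1 also overlapped, at mean log2 CPM of -1.90 in Apc1322T and -1.86 in ApcMin. The part of other cells in these values was not tested.

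The remaining fibril-associated chains went both ways. Col12a1, on the surface of type I fibrils, had 81.7, 33.2 and 55.2 CPM in Apc1322T and 157, 54.8 and 55.4 in ApcMin. Its log2 fold change of 0.65 (SE 0.52) turned to -0.04 without ApcMin replicate 1. Col14a1, another chain on type I fibrils, was at -0.26 (SE 0.26), and Col16a1 had 57.8, 30.2 and 32.9 CPM against 36.3, 18.2 and 21.3, a log2 fold change of -0.67 (SE 0.35). Both overlapped between genotypes. Without single libraries they ran from -0.44 to -0.03 and from -1.03 to -0.31, each lowest without ApcMin replicate 1 and highest without ApcMin replicate 2 for Col14a1 and Apc1322T replicate 1 for Col16a1. Col20a1 had 16 to 32 counts in Apc1322T and 40 to 62 in ApcMin, with ApcMin above by 1.42 CPM at the lowest against 1.40 at the highest Apc1322T library. Its log2 fold change was 0.50 (SE 0.40), and that of Col22a1, at 11 to 73 counts, was 1.01 (SE 0.47). These were 0.19 for Col20a1 without Apc1322T replicate 1 and 0.49 for Col22a1 without ApcMin replicate 3. The class median was -0.20 without Apc1322T replicate 1 and -0.26 without ApcMin replicate 2.

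**Figure D3:**
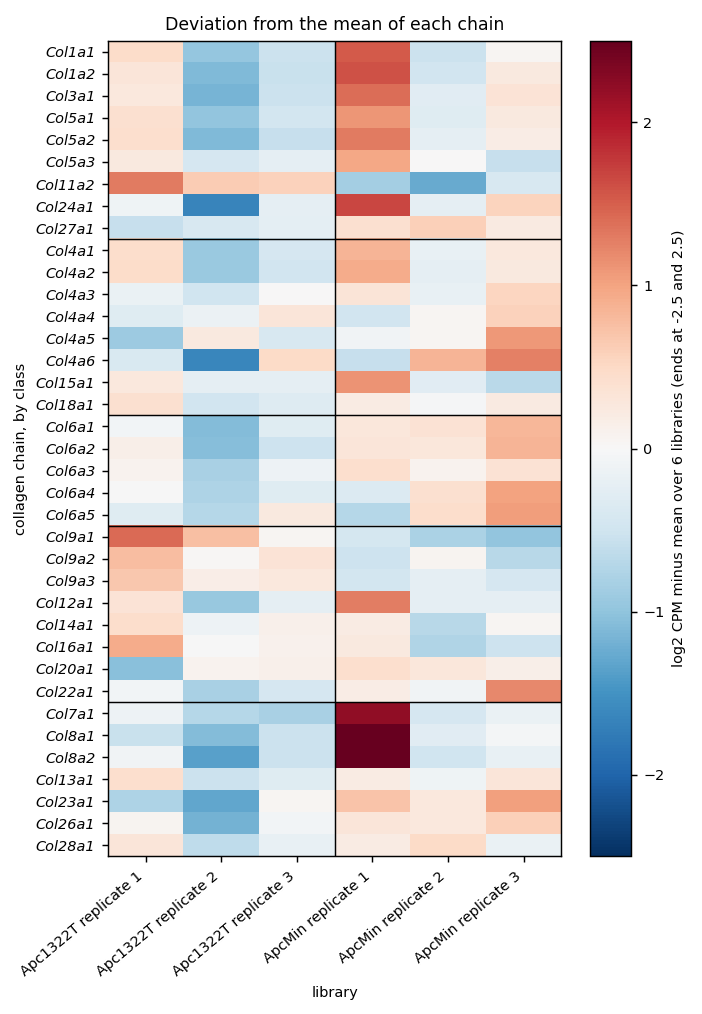
Log2 CPM of each tested chain in each library minus the mean of that chain over the 6 libraries (red above, blue below, colours ending at -2.5 and 2.5), with classes parted by horizontal lines and genotypes by a vertical line. Most fibrillar rows are darkest red in ApcMin replicate 1 and blue in Apc1322T replicate 2, whereas Col11a2, Col9a1 and Col9a3 are red in Apc1322T and blue in ApcMin. Col9a2 is blue in ApcMin replicates 1 and 3 but not in replicate 2.

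The 7 tested chains grouped under networks, anchoring fibrils and membranes were all higher in ApcMin, with a median log2 fold change of 1.30. Much of this lay in a single library. Col8a1, a short chain of hexagonal networks around vessels, had 2.49, 1.71 and 2.54 CPM in Apc1322T and 21.2, 3.03 and 3.57 in ApcMin. ApcMin replicate 1 was 8.36-fold above the median of the other libraries, although the other ApcMin libraries also exceeded all of Apc1322T. The log2 fold change came to 2.04 (SE 0.82, edgeR adjusted p = 0.3222), and 0.55 without that library. Its partner Col8a2 had 12, 3 and 7 counts against 122, 8 and 13, a log2 fold change of 2.19 (SE 1.05) and of 0.27 without ApcMin replicate 1. Col7a1, the anchoring fibril chain below stratified epithelia, had 303, 156 and 158 counts against 2036, 229 and 344. Its log2 fold change of 1.59 (SE 0.75) came down to 0.23 without ApcMin replicate 1. The class median was 0.32 without that library and 0.74 without Apc1322T replicate 2.

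The transmembrane chain Col23a1 did not follow ApcMin replicate 1. It had 1.69, 1.14 and 3.02 CPM in Apc1322T and 4.86, 3.54 and 6.01 in ApcMin, with no overlap, and its log2 fold change was 1.30 (SE 0.40, edgeR adjusted p = 0.2857). Leaving out single libraries gave 1.03 to 1.75. Col26a1 also separated the libraries, at only 3 to 12 counts against 13 to 21, with a log2 fold change of 0.78 (SE 0.49). Col13a1, another transmembrane chain, was at 0.23 (SE 0.30) and Col28a1 at 0.33 (SE 0.38), both with overlap. Without Apc1322T replicate 2 the values of Col26a1, Col13a1 and Col28a1 were 0.44, 0.04 and 0.12, and without Apc1322T replicate 1 those of Col13a1 and Col28a1 were 0.57 and 0.63.

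Partner chains of the same trimer, and 2 pairs of related chains that do not share one (Col3a1 with Col1a1 and Col15a1 with Col18a1), were compared as ratios within a library, which do not depend on library scaling. With 3 libraries against 3 the exact permutation test has 20 assignments and cannot give a two-sided p below 0.10, so no ratio could pass 0.05. Col4a1 to Col4a2 was the tightest, at 0.67, 0.68 and 0.74 in Apc1322T and 0.61, 0.72 and 0.72 in ApcMin as the log2 ratio of counts, while Col4a1 itself ranged 3.42-fold and Col4a2 3.60-fold in CPM among the libraries. The difference of the means was -0.02 (exact permutation p = 0.8, adjusted over 6 ratios 0.96). These genes lie head to head on chromosome 8, with starts 21 bases apart on opposite strands. Their log2 ratio per length averaged 0.65, a 1.57-fold excess of Col4a1. Ratios of RNA do not give the makeup of the protein.

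Col1a1 to Col1a2 was 0.73, 0.71 and 0.61 in Apc1322T and 0.51, 0.52 and 0.38 in ApcMin on the same scale. All ApcMin ratios lay below all Apc1322T ratios, and the difference was -0.21 (exact permutation p = 0.1, the smallest possible, adjusted p = 0.4). Per length, Col1a1 exceeded Col1a2 by 1.18-fold to 1.49-fold. Col6a1 to Col6a2 did not separate, with a difference of 0.02 (exact permutation p = 1.0), and neither did Col3a1 to Col1a1 at 0.27 (exact permutation p = 0.2) or Col5a1 to Col5a2 at -0.14 (exact permutation p = 0.2). Col15a1 to Col18a1 had the widest ratio, ranging over 1.81 log2 units, with a difference of -0.16 (exact permutation p = 0.8).

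**Figure D4:**
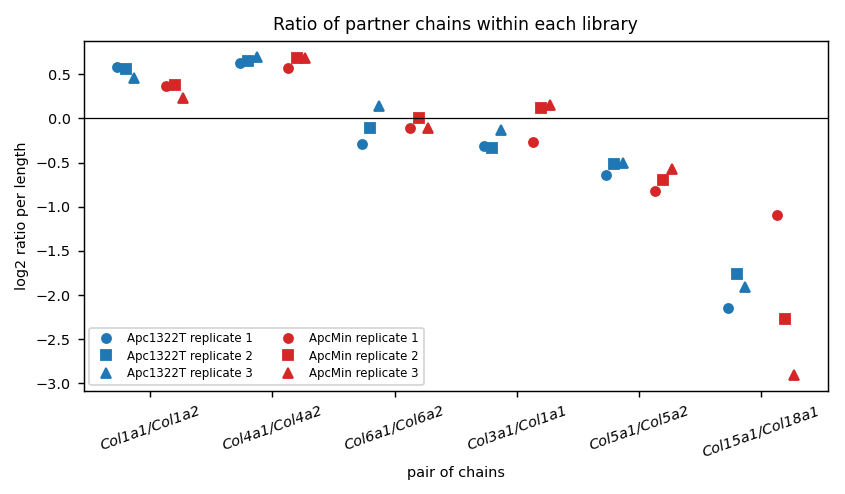
Log2 ratio per length of 6 pairs of chains within each library, for Apc1322T (blue, left of each tick) and ApcMin (red, right of it), with circles, squares and triangles for replicates 1, 2 and 3. The ratio of Col4a1 to Col4a2 stays within 0.13 log2 units and that of Col15a1 to Col18a1 spreads over 1.81, while Col1a1 to Col1a2 is lower in every ApcMin library.

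Position in the genome did not always go with a shared level. Col4a3 and Col4a4 start 72 bases apart on chromosome 1 and Col4a5 and Col4a6 start 1309 bases apart on the X chromosome, each on opposite strands. Per length, Col4a3 was at 0.115 and Col4a4 at 0.0359 CPM per kilobase, and Col4a5 at 0.355 against 0.0742 for Col4a6. Col6a1 and Col6a2 follow each other on the same strand of chromosome 10 with 85161 bases between them, and Col3a1 and Col5a2 lie tail to tail on chromosome 1 with a gap of 24614 bases.

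The genes that process collagen lay on both sides of 0. Among 18 tested genes of modification and folding, 11 were higher and 7 lower in ApcMin, with a median log2 fold change of 0.21. P4hb, the disulfide isomerase subunit of prolyl 4-hydroxylase, which also serves other secreted proteins, had a log2 fold change of -0.48 (SE 0.11) with an adjusted p of 0.2565 in edgeR and 0.002675 in DESeq2. Its log2 CPM were 10.82, 10.96 and 10.95 in Apc1322T and 10.31, 10.54 and 10.44 in ApcMin, without overlap. The catalytic subunit P4ha1 was at 0.05 (SE 0.25), and the lysyl hydroxylase Plod2 at 0.03 (SE 0.13). Serpinh1, the collagen chaperone of the endoplasmic reticulum, was at 0.55 (SE 0.39) and at -0.06 without ApcMin replicate 1. Colgalt1, which adds galactose to hydroxylysine, was at 0.39 (SE 0.12, edgeR adjusted p = 0.2827) with no overlap.

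Of 12 tested genes for propeptide removal and crosslinking, 9 were higher and 3 lower, with a median of 0.60. The propeptidase Adamts2 was at 0.89 (SE 0.64), Bmp1 at 0.39 (SE 0.22) and its enhancer Pcolce at 0.78 (SE 0.34). Without ApcMin replicate 1, Adamts2 was at 0.39 and Pcolce at 0.41, and without Apc1322T replicate 1 Adamts2 was at 1.59 and Bmp1 at 0.62. Bmp1 was lowest, at 0.25, without Apc1322T replicate 2. The crosslinking oxidase Lox had a log2 fold change of 1.01 (SE 0.84), which turned to -0.04 without ApcMin replicate 1, and Loxl2 was at 0.43 (SE 0.29), between 0.21 without Apc1322T replicate 2 and 0.80 without Apc1322T replicate 1. All of these overlapped between the genotypes. Of 9 tested receptors and uptake genes, 7 were higher and 2 lower, with a median of 0.18. The collagen receptor kinases separated the libraries in opposite directions. Ddr2, known from mesenchymal cells, had log2 CPM of 3.28, 2.89 and 3.18 against 4.04, 3.61 and 3.94 and a log2 fold change of 0.75 (SE 0.17) with an adjusted p of 0.2565 in edgeR and 0.02767 in DESeq2. The epithelial Ddr1 was at -0.16 (SE 0.09, edgeR adjusted p = 0.4217), and at -0.10 without Apc1322T replicate 1. The integrin chains Itga1 and Itga2 were at 0.18 (SE 0.16) and 0.04 (SE 0.19), and the uptake receptor Mrc2 at 1.02 (SE 0.48). Without ApcMin replicate 1, Mrc2 was at 0.34 and Itga1 at 0.06.

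Other matrix genes were compared beside the collagens. All 11 listed fibril matrix genes were higher in ApcMin, with a median of 0.84, among them the small proteoglycan Dcn at 0.72 (SE 0.34), Sparc at 0.75 (SE 0.50) and fibronectin Fn1 at 0.82 (SE 0.49). Without ApcMin replicate 1 these came down to 0.34, 0.07 and 0.13. Of 14 other basement membrane genes, 11 were higher and 3 lower, with a median of 0.46. Nid1 was at 0.50 (SE 0.30), the perlecan gene Hspg2 at 0.56 (SE 0.33), and the laminin chains Lama1 and Lamc1 at 0.79 (SE 0.42) and 0.49 (SE 0.24). Hspg2 was at 0.20 and Lama1 at 0.51 without ApcMin replicate 1, Nid1 at 0.28 without Apc1322T replicate 2, and Nid1, Lama1 and Lamc1 at 0.90, 1.23 and 0.74 without Apc1322T replicate 1. The smallest edgeR adjusted p among these named genes was 0.3716, for Dcn.

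Cell type markers also differed in level between the libraries. Summed CPM of 9 epithelial markers were 14750 to 18150 in Apc1322T and 11970 to 14120 in ApcMin, with all 9 lower in ApcMin and 6 (66.7%) below without overlap, against 9.96% of all genes. All 8 tested smooth muscle markers were higher, at sums of 135 to 271 against 290 to 428, as were all 9 endothelial and pericyte markers, at 171 to 255 against 238 to 331. Fibroblast markers, of which 8 of 10 were higher with a list median of 0.76, overlapped in their sums at 429 to 494 against 410 to 603. The 2 lower ones, Dpep1 (-0.34) and Fbln1 (-0.52), were the most abundant of the list in Apc1322T, at means of 6.65 and 7.20 log2 CPM. Without overlap, 3 of the 10 fibroblast markers lay above (background 11.0%) and 1, Fbln1, below (background 9.96%). At 0.01, DESeq2 called 2 of them (background 1.12%), Pdgfra at 1.00 (adjusted p = 0.0065) and Dpt at 1.08 (adjusted p = 0.003379). For both, edgeR gave an adjusted p of 0.2565. Leukocyte markers summed to 40.8 to 55.5 against 54.6 to 101, mesothelial markers to 6.84 to 7.89 against 12.0 to 35.8, and glial markers to 4.48 to 4.80 against 4.84 to 7.49. The mesothelial difference was made by Msln (log2 fold change 1.59, SE 0.45, edgeR adjusted p = 0.2791). Upk3b overlapped at 0.07, and Lrrn4 and Wt1 stayed below the filter. The squamous basal markers summed to 6.71 to 8.06 against 23.1 to 25.3, a difference made by Krt14 (log2 fold change 2.51, SE 0.18, edgeR adjusted p = 0.04846). Of the others, Dsg3 lay lower without overlap at -0.81, Krt15 overlapped, and Krt5 and Trp63 stayed below the filter. ApcMin replicate 1, highest in fibrillar collagen, was the highest library for fibroblast and leukocyte markers but not for smooth muscle, endothelial or mesothelial markers. In bulk tissue, more cells of a type and more RNA per cell cannot be told apart, and the part of these markers in the collagen values was not tested.

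**Figure D5:**
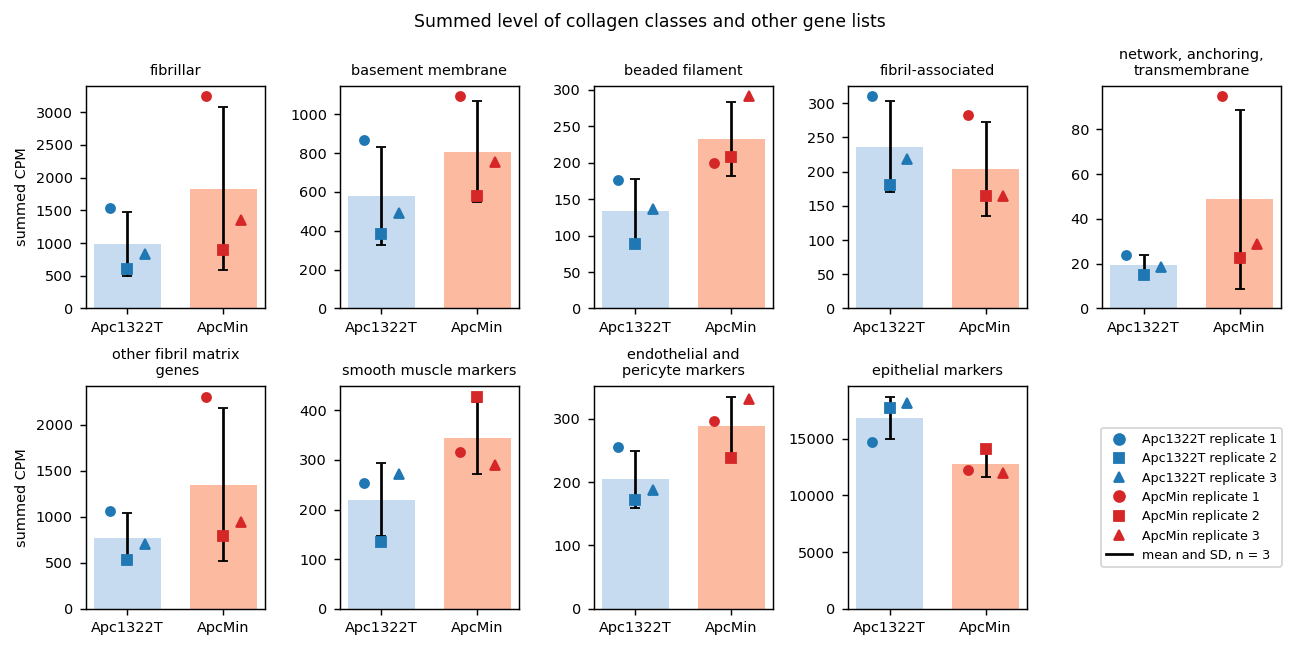
Summed CPM of the 5 collagen classes, of other fibril matrix genes and of smooth muscle, endothelial and pericyte, and epithelial markers, as means with SD (n = 3) and single libraries. The classes of fibrillar and network chains have their highest value in ApcMin replicate 1 (3244 and 94.8 CPM), the beaded filament class in ApcMin replicate 3 (291 CPM). The sums of the beaded filament class, of smooth muscle markers and of epithelial markers do not overlap between genotypes.

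Shares of the classes in the collagen RNA were compared as well. Fibrillar chains made up 49.8% ± 2.8 of the summed collagen CPM in Apc1322T and 55.4% ± 9.5 in ApcMin (SD, n = 3), and basement membrane chains 29.6% ± 0.76 and 27.4% ± 4.6. The fibril-associated share was 10.6, 14.3 and 12.8% in Apc1322T against 5.75, 8.79 and 6.35% in ApcMin, without overlap. The summed CPM of this class did overlap, at 310, 181 and 218 in Apc1322T against 282, 164 and 164 in ApcMin. A share also falls when the other classes rise. The summed level of all chains was 2914, 1262 and 1705 CPM in Apc1322T against 4912, 1868 and 2592 in ApcMin, so that Apc1322T replicate 1 exceeded ApcMin replicates 2 and 3.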

How the data were processed

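The authors deposited estimated counts per gene for the 6 libraries, which they made with Salmon from the GRCm38.p6 transcriptome and summed with tximport. The libraries were made with a stranded kit from 1 µg total RNA and sequenced as single 50-base reads. The annotation release and the strand setting of Salmon are not given in the sources used here. For this work the estimated counts were rounded (36.7% of values were not whole). Symbols were found for 34582 of 34866 identifiers in GENCODE M21. Genes were filtered with filterByExpr (minimum count 10, minimum total 15), scaled by TMM and tested with robust edgeR 4.0.16 quasi-likelihood fits in R 4.3.3, with Benjamini-Hochberg adjustment over 16536 genes and the study's threshold of 0.01. The log2 CPM use a prior count of 2, and standard errors were computed from the fold change and F. DESeq2 1.42.0, the study's tool, and limma 3.58.1 were alternatives. The edgeR step was tested on simulated data. Ratios within libraries were compared by two-sided exact permutation tests, on log2 counts plus 2. Lengths are of the GENCODE transcript with the longest coding sequence, so levels per kilobase rest on that transcript. Exons of 3 chains share bases with another gene on the same strand and those of 10 with a gene on the opposite strand.

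Every tested chain could be named, and of the partner genes a fixed set whatever their values. Comp, Acan, Tcfl5, the named fibroblast, mesothelial and squamous markers and the untested chains were named after their values were seen. The members, classes, marker lists and alternatives were chosen with earlier results of these data known. The labels give replicate numbers but state no pairing, and the main fit used none. No count column was left without a sample.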

Additional observations from a re-analysis of the deposited data

How the results depend on the processing

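For abundant chains the counting error is small beside the spread between the 3 libraries of a genotype, and for those with under 50 counts it adds to it. The number of genes called went from 0 to 194 with DESeq2, to 1 without a filter on low counts, to 1 at an adjusted p of 0.05 and to between 0 and 1 without single libraries. The number of chains called went from 0 to 3 with DESeq2 and stayed at 0 without single libraries. Chains at an unadjusted p under 0.05 went from 9 to 15 with DESeq2, to 18 in the fit that blocks on replicate number and to between 6 and 16 without single libraries. The highest of these was without ApcMin replicate 2. Beside these, all genes at this p numbered 2495 in the main fit, 2888 with DESeq2, 2113 in the block fit and 2128 without ApcMin replicate 2. Deviations of same-numbered libraries correlated at -0.014, 0.164 and -0.286, and only number 2 matched best with itself. They were taken from the mean of the 3 libraries of each genotype, so they cannot decide whether the numbers pair libraries. Chains lower in ApcMin numbered 6 to 10 and those higher 29 to 33 without single libraries. All genes at an unadjusted p under 0.05 numbered 1180 to 4117 there, most without Apc1322T replicate 1, where the chains numbered 11. The cause of these differences was not tested.

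Of 507 values of the 37 chains under the alternatives, 500 kept their direction and side of the threshold and 3 were newly called. The 4 that reversed did so without single libraries, where Col5a3 ran from -0.14 to 0.68, Col15a1 from -0.43 to 0.62 and Col12a1 from -0.0436 to 1.02 (each lowest without ApcMin replicate 1), and Col4a4 from -0.21 to 0.43 (lowest without ApcMin replicate 3). Of 308 values of 22 partner genes, 297 kept both and 1, P4hb with DESeq2, was newly called. Those that reversed did so there too, where P4ha1 ran from -0.1401 to 0.2563, Serpinh1 from -0.055 to 0.7844, Plod2 from -0.0506 to 0.1312, Lox from -0.0448 to 1.9552 and Itga2 from -0.1311 to 0.2241. Without single libraries the log2 ratio difference ran from -0.0341 to 0.021 for Col4a1 to Col4a2, from -0.0855 to 0.1277 for Col6a1 to Col6a2, and from -0.6521 to 0.2515 for Col15a1 to Col18a1. A count offset of 0.5 in place of 2 reversed none of the 6 ratios.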

Other observations

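The chains that stood highest in a single library were picked out after their values were seen. ApcMin replicate 1 exceeded the median of the other libraries 44.1-fold for the untested Col11a1, 10.8-fold for Col8a2, 8.36-fold for Col8a1 and 6.32-fold for Col7a1. For the abundant Col1a1, Col1a2 and Col3a1 the same quantity was 4.18, 4.23 and 3.22, and for Col4a1 and Col4a2 it was 2.05 and 2.21. In ApcMin replicate 3, by contrast, the highest library for 11 tested chains, Col4a6 stood 3.54-fold, Col6a5 2.66-fold, Col22a1 2.55-fold and Col6a4 2.46-fold above the median of the others. Apc1322T replicate 1 was the highest library for 8 tested chains, among them Col9a1 (3.89-fold), Col11a2 (3.24-fold) and Col16a1 (1.92-fold).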
